A study of Mus musculus with 12 samples.

Results

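The complement system was followed here through 32 mouse genes, which encode its components, regulators and receptors. The genes were listed by name, not by a level or fold change, and all 32 symbols matched an Ensembl identifier among the 55414 genes counted. By role they comprise 7 genes that start the classical pathway (C1qa, C1qb, C1qc, C1ra, C1s1, C4b and C2), 4 genes of the lectin pathway (Mbl1, Mbl2, Masp1 and Masp2), and C3 with 3 genes of the alternative pathway (Cfb, Cfd and Cfp). The other roles are 7 genes of the terminal pathway (Hc, which encodes C5, and C6, C7, C8a, C8b, C8g and C9), 7 regulators (Cfi, C4bp, Serping1, Cd55, Cd59a, Cd46 and Cr1l) and 3 receptors (C3ar1, C5ar1 and C5ar2).

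Complement is a cascade of plasma proteases in which recognition molecules activate C3, C3 fragments coat the target, and the terminal components assemble into a pore in its membrane. The liver is the main source of most plasma components, while macrophages make C1q and fat cells are a well-known source of factor D. The small fragments C3a and C5a act on receptors of myeloid and other cells, and membrane regulators protect host cells.

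RNA was sequenced from whole lung and whole liver of wild-type (WT) C57BL/6J mice. In the operated group, polymicrobial sepsis was induced by cecal ligation and puncture (CLP), in which the cecum is tied off and pierced so that gut bacteria leak into the abdomen, and the other mice had Sham surgery. Both organs were taken 6 h later, and each of the 4 groups (CLP lung, sham lung, CLP liver and sham liver) had 3 libraries. No age and no sex are given in the labels used here, and nothing there says whether a lung and a liver came from the same mouse or whether replicates were separate animals, so the p-values measure the spread between these libraries, which may be partly technical. The libraries held 10559895 to 15854117 counts assigned to genes, so that 3 counts were worth 0.140 to 0.493 CPM. CPM, the usual unit of a gene's counts relative to its library, are on library sizes scaled over all 12 libraries. Fold changes come from edgeR's quasi-likelihood test with Benjamini-Hochberg adjustment over all genes tested, a gene was called at an adjusted p below 0.05, and "±" beside a log2 fold change is its standard error.

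The labelled organs showed their own markers. The summed level of 12 hepatocyte genes ran from 55.3 to 76.5 CPM in CLP lung and from 20.5 to 127 CPM in sham lung, against 264510 to 303400 CPM in CLP liver and 199970 to 244620 CPM in sham liver. The summed level of 7 alveolar type 2 cell genes was 12336 to 14277 CPM in CLP lung and 14754 to 16033 CPM in sham lung. In liver that sum was 135 to 163 CPM after CLP and 124 to 131 CPM after sham. Of 6 of these genes tested in liver, 5 were called higher after CLP (median log2 fold change 2.25). The liver sum rose little beside this, so the genes with the larger rises made up a small part of it. The source of these rises was not tested. Across all genes tested, the calls split into 2647 higher and 2600 lower in liver and into 3698 higher and 3850 lower in lung. With library totals in place of scaled sizes, those splits became 1689 to 3796 in liver and 2977 to 4847 in lung, and the median log2 fold change of all genes moved to -0.21 in liver and -0.13 in lung.

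Upstream sequences are shown for C3 and for the 3 receptor genes, because C3, C3ar1 and C5ar1 were higher in CLP lung, whereas C5ar1 and C5ar2, which lie next to each other on chromosome 7 with 2588 bases between them, were called in opposite directions in the liver. Each sequence is the 250 bases before an annotated start, read 5′ to 3′ on the minus strand of GRCm38.p6, from RefSeq, which held such a sequence for 25 of the 32 genes. The annotated span of C5ar1 reaches base 16259540, so most of its sequence lies inside the gene. Capitals mark matches, on either strand, to 5 motifs searched by their letters, namely TTGCNNAA (C/EBP type), GGGNNNTTCC (NF-kB type), TTCNNNGAA (STAT type), GAAANNGAAA (IRF type) and TATAAA (the type of a core promoter box).
C3 (chr17:57228137-57228386): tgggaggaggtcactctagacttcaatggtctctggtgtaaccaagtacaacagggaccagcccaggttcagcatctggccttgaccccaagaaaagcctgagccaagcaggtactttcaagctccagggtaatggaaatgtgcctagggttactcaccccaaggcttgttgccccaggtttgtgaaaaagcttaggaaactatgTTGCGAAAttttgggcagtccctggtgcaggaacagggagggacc
C3ar1 (chr6:122856158-122856407): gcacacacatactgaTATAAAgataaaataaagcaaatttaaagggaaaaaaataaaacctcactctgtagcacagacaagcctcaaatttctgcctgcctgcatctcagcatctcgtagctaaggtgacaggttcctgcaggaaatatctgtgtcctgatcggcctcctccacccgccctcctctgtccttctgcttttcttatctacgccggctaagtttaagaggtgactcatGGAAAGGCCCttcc
C5ar1 (chr7:16259339-16259588): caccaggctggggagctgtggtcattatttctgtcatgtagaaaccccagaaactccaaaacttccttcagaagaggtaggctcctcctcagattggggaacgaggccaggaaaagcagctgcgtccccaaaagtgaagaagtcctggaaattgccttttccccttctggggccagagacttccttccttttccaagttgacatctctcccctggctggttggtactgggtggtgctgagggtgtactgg
C5ar2 (chr7:16244155-16244404): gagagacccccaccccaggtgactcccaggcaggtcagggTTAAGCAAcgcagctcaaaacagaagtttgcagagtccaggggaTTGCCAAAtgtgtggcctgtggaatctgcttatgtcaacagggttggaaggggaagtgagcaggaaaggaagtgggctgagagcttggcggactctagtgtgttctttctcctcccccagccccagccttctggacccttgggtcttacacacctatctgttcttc
The C3 sequence held 1 C/EBP-type match and the C5ar2 sequence held 2, the C3ar1 sequence held 1 NF-kB-type match near its start and 1 core promoter box match far upstream, and the C5ar1 sequence held none of the 5 motifs. The other annotated start of C5ar2 (chr7:16242332-16242581) had no match either. C/EBP-type letters were present in 9.56% of all 32851 mouse promoters and in 4 of the 28 belonging to the complement genes. NF-kB-type letters were present in 4.65% of all and in 1 of the 28, STAT-type letters in 7.02% and 3, IRF-type letters in 2.98% and 1, and the core promoter box in 12.4% and 3. A match describes letters only.

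CLP was followed by higher transcript levels of C3, factor B, properdin and the receptors C3ar1 and C5ar1 in the lung, where C5ar2 was not called. Factor B had low counts in lung, and its call there was lost in 4 of 15 alternative analyses. In the liver, factor B and C5ar1 were higher, and C5ar2, the C1q A and C chains and the membrane regulator Cd59a were lower. In lung, 25 of the 32 genes had enough counts to test, and 11 were higher, 3 were lower and 11 were not called after CLP. These are 44% and 12% of the 25, beside 23.9% of all 15441 lung genes called higher and 24.9% called lower. The median log2 fold change was 0.29 for the 25 genes and -0.03 for all genes tested. In liver, 31 genes were tested, and 5 were higher, 5 were lower and 21 were not called. These are 16.1% in each direction, beside 21.4% of all 12392 liver genes called higher and 21% called lower, so the liver share is near its background. The median was -0.02 for the 31 genes and -0.01 for all genes. The split of liver calls depended on scaling, with 3 higher and 9 lower on library totals alone, and with 4 higher and 6 lower under upper-quartile scaling, which moved the median of all liver genes to -0.11. Of the 5 genes lower in liver, 3 remained called without the third sham liver library. Of the 3 lower in lung, none was called without the first CLP, the first sham or the third sham lung library, and 1 was called without the second or the third CLP library. The genes not tested were Cfd in liver and Masp2, Mbl2, C8a, C8b, C8g, C9 and C4bp in lung.

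**Figure D1:**
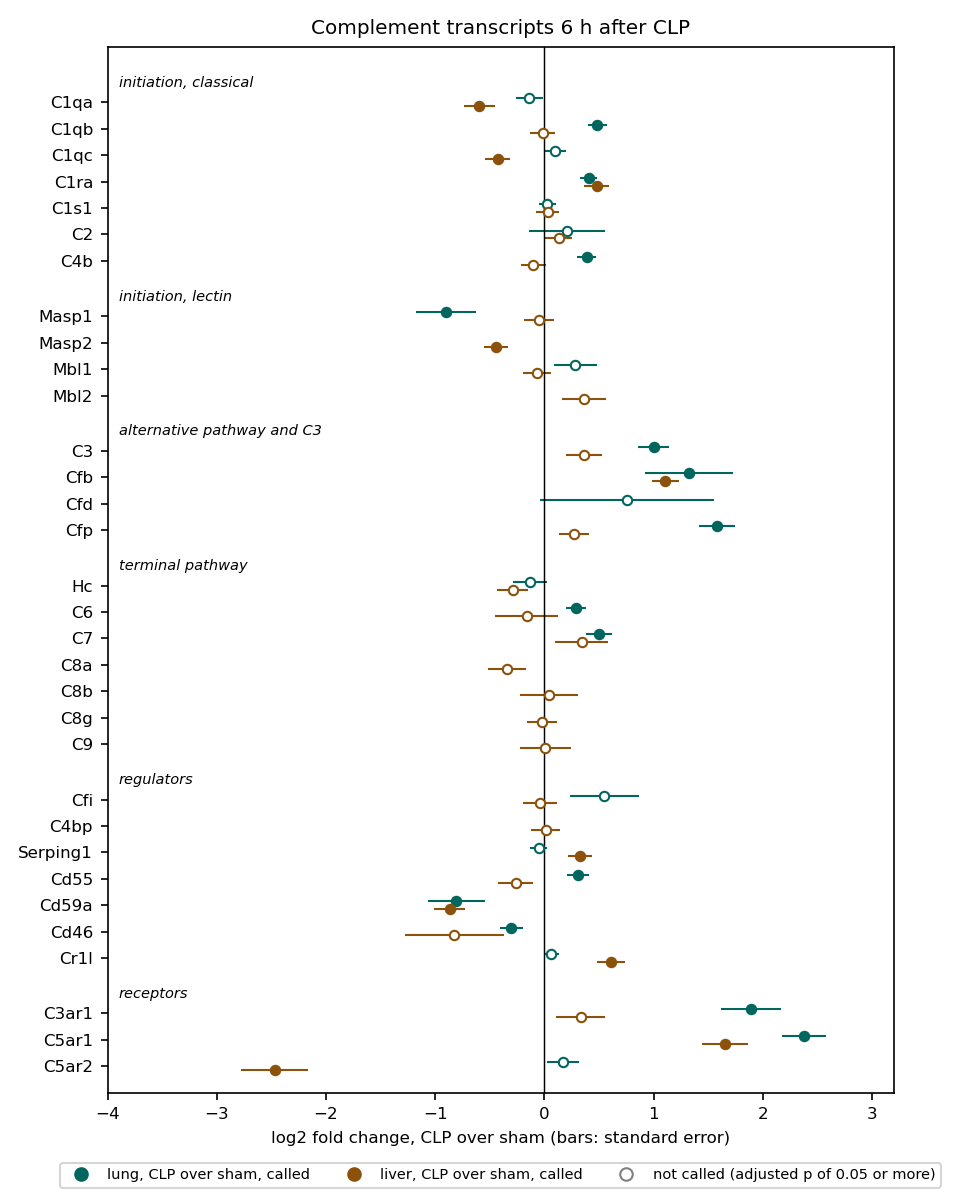
Log2 fold change of CLP over sham for each gene, grouped by role, with lung in green and liver in brown, standard errors as bars and filled points for genes called at an adjusted p below 0.05. C5ar1 lay at 2.38 in lung and 1.65 in liver, and C5ar2 lay at 0.17 in lung and -2.47 in liver.

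Of the genes that start the classical pathway, C1qa and C1qc were lower in CLP liver, C1ra was higher in both organs, and C1qb and C4b were higher in CLP lung. C1qa, C1qb and C1qc encode the 3 chains of C1q, which binds antibody on a target and is made largely by macrophages. C1qa had 31.6, 46.0 and 43.4 CPM in CLP liver, against 60.4, 61.8 and 60.1 CPM in sham liver. The groups did not overlap, and the log2 fold change was -0.60 ± 0.14 (adjusted p = 0.00939). C1qc had 41.8, 47.2 and 53.6 CPM in CLP liver, against 65.3, 61.1 and 64.9 CPM in sham liver. Again every CLP library lay below every sham library (-0.43 ± 0.11, adjusted p = 0.0153), but the call was lost without the first CLP or the first or the third sham liver library, at adjusted p up to 0.0534. C1qb had 55.0, 67.1 and 66.6 CPM in CLP liver and 66.4, 57.1 and 66.6 CPM in sham liver, and these ranges overlapped (-0.02 ± 0.11, adjusted p = 0.922). In bulk tissue, fewer cells of a type and less RNA per cell cannot be told apart.

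In CLP lung, C1qb had 23.4, 20.7 and 22.4 CPM, against 16.8, 15.8 and 15.7 CPM in sham lung. All 3 CLP libraries lay above all sham libraries (0.49 ± 0.08, adjusted p = 0.00219). C1qc had 16.3, 14.0 and 14.1 CPM in CLP lung and 13.1, 14.5 and 14.8 CPM in sham lung, with overlap (0.09 ± 0.10, adjusted p = 0.475). C1qa, at 15.1 ± 1.69 CPM in CLP lung and 16.9 ± 1.84 CPM in sham lung (SD, n = 3 each), was not called. The 3 chains of C1q were therefore not called together in either organ.

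Beside the C1q values, the summed level of 8 macrophage markers was 263 to 347 CPM in CLP liver and 399.96 to 429.91 CPM in sham liver, with 1 marker higher, 3 lower and 4 not called. The summed level of 6 Kupffer cell markers, which mark the liver's resident macrophages, was 187 to 233 CPM in CLP liver and 417 to 494 CPM in sham liver, with 4 of 6 lower and 0 higher. Both sums were lower in every CLP liver library than in any sham liver library, and no marker of either list was at 0 in either liver group. In lung, the macrophage sum was 3521.5 to 3674.9 CPM after CLP and 3677.9 to 3899.2 CPM after sham, so that the sum was lower although 6 of 8 markers were called higher and 1 lower. The part of these cells in the C1q values was not tested.

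C1ra encodes the protease C1r, which C1q activates and which in turn cleaves C1s. It had a mean of 314 ± 24.7 CPM in CLP liver and 225 ± 13.4 CPM in sham liver (SD, n = 3 each), and of 33.5 ± 2.02 CPM in CLP lung and 25.7 ± 0.605 CPM in sham lung. The log2 fold changes were close, at 0.41 ± 0.08 in lung (adjusted p = 0.00327) and 0.48 ± 0.11 in liver (adjusted p = 0.00965), and the liver call was lost on library totals alone (adjusted p = 0.067). C1s1, the partner protease, was at 87.7 ± 5.60 CPM in CLP lung and 87.5 ± 2.68 CPM in sham lung, and at 589.6 ± 19.8 CPM in CLP liver and 577 ± 26.7 CPM in sham liver. It was called in neither organ. C4b, whose product is cleaved by C1s and lectin-pathway proteases, had 131, 116 and 119 CPM in CLP lung, against 97.8, 87.7 and 98.9 CPM in sham lung. The lung groups did not overlap (0.39 ± 0.09, adjusted p = 0.00648). In liver C4b had 2369, 2368 and 2552 CPM after CLP and 2527, 2638 and 2640.1 CPM after sham, which overlapped, and it was not called (adjusted p = 0.493). C2, which supplies the protease of the classical C3 convertase, was called in neither organ, at 4.84 ± 1.95 CPM in CLP lung and 4.26 ± 1.22 CPM in sham lung and at 50.9 ± 3.62 CPM in CLP liver and 46.4 ± 6.23 CPM in sham liver. C1ra, C1s1 and C4b have near-identical copies (C1rb, C1s2 and C4a), among which the counting may have divided reads. C1rb and C1s2 had at most 0.140 CPM in any library, and C4a averaged 33.2 ± 21.8 CPM in CLP liver and 31.5 ± 2.73 CPM in sham liver.

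In the lectin pathway, where mannose-binding lectins recognise microbial sugars and activate MASP proteases, Masp2 was lower in CLP liver and Masp1 was lower in CLP lung. Masp2 had 303, 281 and 306 CPM in CLP liver, against 372, 403 and 433 CPM in sham liver. The groups were separate (-0.44 ± 0.11, adjusted p = 0.0131), and the call was lost without the third sham liver library (adjusted p = 0.0536). Masp2 shares 1817 exon bases with Tardbp on the opposite strand, and the strand setting of the counting is not given in the sources used here. In the lung libraries Tardbp had 2411 to 3398 counts, while Masp2 had 2 to 8 counts. Masp1 had 1.10, 1.495 and 1.17 CPM in CLP lung, against 2.895, 1.64 and 2.66 CPM in sham lung. These low levels did not overlap (-0.90 ± 0.27, adjusted p = 0.0251), but the call was lost without either of 2 CLP or 2 sham lung libraries (the first and the third of each), at adjusted p up to 0.0954. In liver, Masp1 had 299, 276 and 378 CPM after CLP and 310.1, 341 and 333 CPM after sham, which overlapped, and it was not called (adjusted p = 0.802). Mbl1 and Mbl2 encode the lectins. Mbl1 averaged 329 ± 46.6 CPM in CLP liver and 344 ± 21.4 CPM in sham liver, Mbl2 averaged 391 ± 71.8 CPM in CLP liver and 303 ± 69.2 CPM in sham liver, and neither was called. In lung Mbl1 had 3.03 ± 0.479 CPM after CLP and 2.53 ± 0.357 CPM after sham (adjusted p = 0.277).

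C3, the component on which all pathways converge, was the most abundant of the 32 transcripts per length in CLP lung, CLP liver and sham liver. In lung it had 1028, 1066 and 771 CPM after CLP, against 521, 432 and 504 CPM after sham. Every CLP lung library lay above every sham lung library, and the difference was 2-fold (1.00 ± 0.14, adjusted p = 0.000918). In liver it had 28530, 34971 and 28255 CPM after CLP, against 20162, 28766 and 22345 CPM after sham. The highest sham liver library lay within the CLP range, and the difference was not called (0.36 ± 0.17, adjusted p = 0.114). It was called in 2 of 15 alternatives, among them the analysis without that library, the second sham liver library (adjusted p = 0.0347). The test of the difference between the responses of lung and liver did not call C3 (0.61 ± 0.34, adjusted p = 0.244).

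Cfb encodes factor B, the protease subunit of the alternative C3 convertase, and it was the gene of this pathway that was higher in both organs. In liver it had 46.2, 39.7 and 46.7 CPM after CLP, against 18.5, 22.8 and 20.1 CPM after sham. The groups were far apart, and the difference was 2.15-fold (1.11 ± 0.12, adjusted p = 0.000294). In lung it had 28, 29 and 14 counts after CLP, against 13, 5 and 12 counts after sham. The lung counts were low and just separate (1.33 ± 0.40, adjusted p = 0.0255), and the call was lost without any 1 of 4 lung libraries (CLP 1, CLP 2, sham 2 or sham 3), at adjusted p up to 0.0794. Cfb shares 2246 of its 2825 exon bases, and C2 shares 1656 of 3872, with the readthrough gene Gm20547 on the same strand. How reads in shared exons were counted is not given in the sources used here. Gm20547 had 0 counts in every library, so such reads were not counted to it. If they were left out as ambiguous, the levels given for Cfb and C2, also per kilobase, are too low.

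Cfp encodes properdin, which stabilises the alternative convertase and is stored in neutrophils. It had 46.1, 38.3 and 31.7 CPM in CLP lung, against 10.7, 14.2 and 14.6 CPM in sham lung. The lowest CLP library was above the highest sham library by a wide margin, and the difference was 2.99-fold (1.58 ± 0.16, adjusted p = 0.000243). In liver it had 33.4, 47.2 and 36.7 CPM after CLP and 33.0, 32.1 and 31.9 CPM after sham. The CLP liver values lay above the sham values by a small margin in 2 libraries and a larger one in the second, and the difference was not called (0.27 ± 0.14, adjusted p = 0.144).

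Cfd encodes factor D (adipsin), which cleaves factor B. In lung it had 6.00, 33.9 and 5.40 CPM after CLP and 6.25, 8.15 and 12.9 CPM after sham. The second CLP library stood alone, and the difference was not called (0.75 ± 0.80, adjusted p = 0.477). Without that library the log2 fold change was -0.61 (adjusted p = 0.142), and without any other single lung library it lay between 0.54 and 1.18. The summed level of 8 adipocyte markers was 77.7 CPM in that same library, against 26.9 and 29.6 CPM in the other CLP lung libraries and 35.4 to 37.0 CPM in sham lung. Of 6 of these markers tested in lung, none was called. In liver, Cfd had 1 count over all CLP libraries and 1 over all sham libraries. Yet the same marker sum was 790 to 956 CPM in CLP liver and 197 to 347 CPM in sham liver. Plin1 and Lep were at 0 in both liver groups and Adipoq in sham liver, so the liver sum came from other markers of the list. The part of fat tissue in the Cfd values was not tested.

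**Figure D2:**
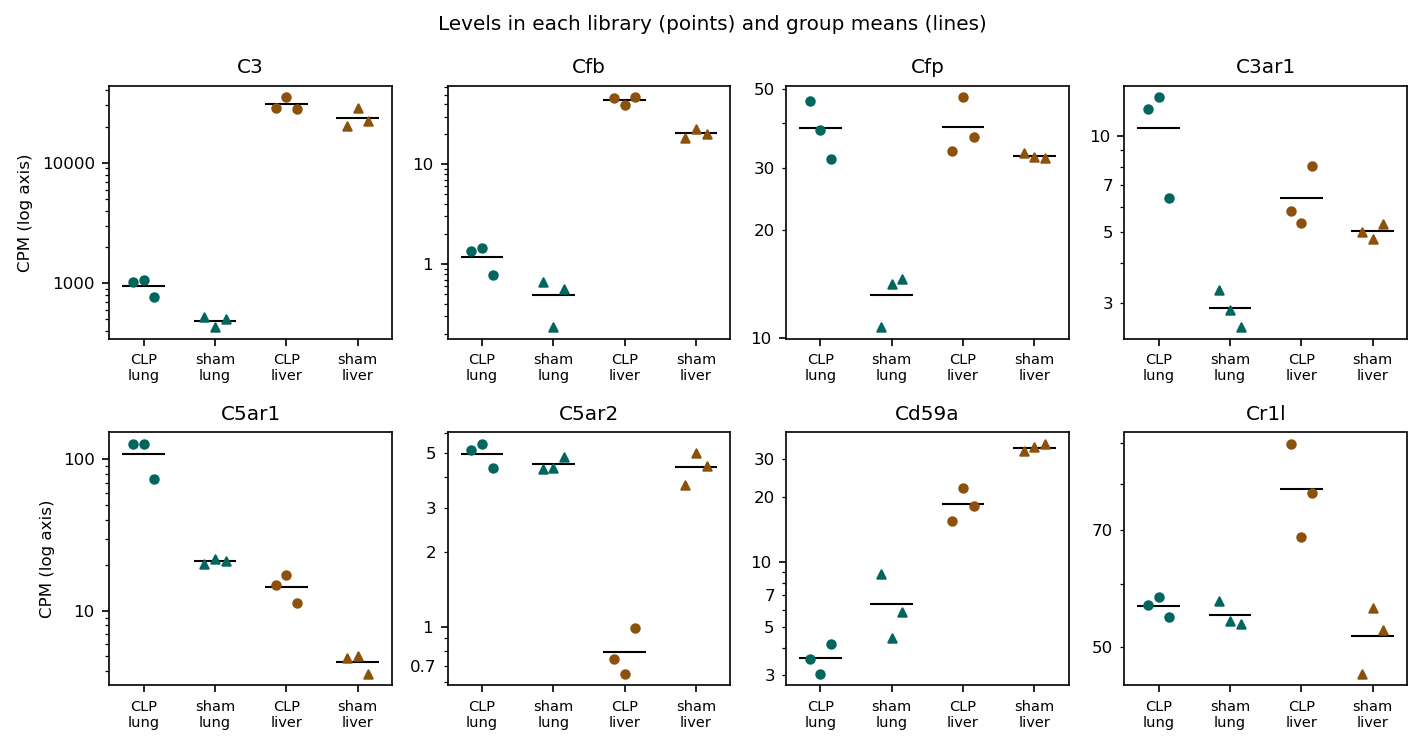
Levels in CPM on log axes in CLP lung, sham lung, CLP liver and sham liver, with 1 point for each library and a line at the group mean. C5ar2 in CLP liver lay between 0.650 and 0.987 CPM, below the 9 other libraries, and C5ar1 in CLP lung lay between 73.9 and 126 CPM, above them.

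Of the genes of the terminal pathway, whose products form the membrane pore, C6 and C7 were higher in CLP lung. The responses of lung and liver were not called different for C7 (0.13 ± 0.23, adjusted p = 0.772) or C6 (0.43 ± 0.32, adjusted p = 0.417). C7 had 303, 237 and 306 CPM in CLP lung, against 217, 189.8 and 204 CPM in sham lung. The groups did not overlap (0.50 ± 0.12, adjusted p = 0.00949). C6 had 42.6, 36.1 and 42.9 CPM in CLP lung, against 35.5, 33.7 and 32.02 CPM in sham lung. These groups were barely separate (0.29 ± 0.09, adjusted p = 0.0296), and 7 of 15 alternative analyses lost the call, with adjusted p up to 0.391. Hc, the gene of C5, had 539, 356 and 418 CPM in CLP lung and 532, 446 and 485 CPM in sham lung, which overlapped. In liver it had 1623, 1195 and 1449.7 CPM after CLP and 1703, 1693 and 1819 CPM after sham. Every CLP liver library lay below every sham liver library, but Hc was called in neither organ (adjusted p = 0.516 in lung and 0.132 in liver), although it was called lower in liver on library totals alone (adjusted p = 0.0191) and under upper-quartile scaling (adjusted p = 0.0436).

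In liver, none of the 7 terminal genes was called in the main analysis of all 6 libraries (adjusted p from 0.132 to 0.978). Their summed level was 4460 ± 1086 CPM after CLP and 5082.5 ± 145.9 CPM after sham (SD, n = 3 each). The spread of the CLP libraries was larger for several of them. C9, the pore-forming unit, had 1129.5, 600.0 and 753 CPM in CLP liver and 696, 894 and 873 CPM in sham liver. C8b had 715, 331 and 425 CPM in CLP liver and 443, 456 and 525 CPM in sham liver. The first CLP liver library held the highest value of each, and the second held the lowest. C8a showed the same order within the CLP group, with 1346, 844 and 1041 CPM in CLP liver and 1432, 1319.8 and 1336 CPM in sham liver. C8a was called lower without the first CLP liver library (adjusted p = 0.0339) and on library totals alone (adjusted p = 0.0335). C6 followed that order too, with 473, 198 and 346 CPM in CLP liver and 421, 373 and 343 CPM in sham liver. C8g was at 300.1 ± 21.8 CPM in CLP liver and 304 ± 46.1 CPM in sham liver. C7 had 3.21, 4.16 and 3.29 CPM in CLP liver and 2.79, 2.50 and 3.08 CPM in sham liver.

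Among the regulators, Cd59a was lower in both organs, Cr1l and Serping1 were higher in liver, and Cd55 was higher and Cd46 lower in lung. Cd59a, which encodes a membrane protein that blocks pore assembly, had 15.6, 22.1 and 18.3 CPM in CLP liver, against 32.6, 34.0 and 35.2 CPM in sham liver. The liver groups were far apart, and the level after CLP was 1.83-fold lower (-0.87 ± 0.14, adjusted p = 0.00165). In lung Cd59a had 3.55, 3.04 and 4.18 CPM after CLP, against 8.84, 4.45 and 5.89 CPM after sham. The lung groups were just separate (-0.81 ± 0.26, adjusted p = 0.0336), and 5 of 15 alternatives lost the call, among them limma-voom (adjusted p = 0.0511) and each analysis without CLP 1, CLP 2, sham 1 or sham 3 (up to 0.106). Its copy Cd59b was at or under 1.73 CPM in every library.

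Cr1l encodes Crry, the rodent membrane regulator of C3 convertases. It had 89.7, 68.7 and 78.0 CPM in CLP liver, against 46.3, 55.9 and 52.5 CPM in sham liver. Every CLP liver library was above every sham liver library (0.61 ± 0.13, adjusted p = 0.00534). In lung it had 56.4, 57.7 and 54.5 CPM after CLP and 57.0, 53.9 and 53.4 CPM after sham, which overlapped (0.06 ± 0.07, adjusted p = 0.485). Cd55, which encodes decay-accelerating factor, had 39.4, 48.5 and 39.0 CPM in CLP lung, against 36.6, 33.8 and 33.8 CPM in sham lung. The margin was small (0.31 ± 0.10, adjusted p = 0.0326), and 7 of 15 alternatives lost the call. Its copy Cd55b had at most 0.288 CPM in any library. In liver Cd55 was at 22.4 ± 2.89 CPM after CLP and 26.9 ± 4.91 CPM after sham and was not called. Cd46, which in mice is known mainly from testis, had 6.67, 6.33 and 6.96 CPM in CLP lung, against 8.28, 8.48 and 8.27 CPM in sham lung. Its lung groups were separate (-0.30 ± 0.11, adjusted p = 0.047), but 11 of 15 alternatives lost the call, and it shares 1079 exon bases with A330023F24Rik on the opposite strand.

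Of the plasma regulators, Serping1, the gene of the C1 inhibitor, had 1882, 1832 and 1789 CPM in CLP liver, against 1432, 1529.6 and 1416 CPM in sham liver. The liver groups did not overlap, and the difference was small (0.33 ± 0.11, adjusted p = 0.0437). The call was lost in 10 of 15 alternatives, including each analysis that left out 1 liver library, with adjusted p up to 0.347. In lung Serping1 had 308, 308 and 320.0 CPM after CLP and 322, 331 and 335 CPM after sham (adjusted p = 0.616). Cfi and C4bp, whose products inactivate C3b and C4b, were not called in liver, with Cfi at 830.0 ± 56.2 CPM after CLP and 852 ± 155 CPM after sham and C4bp at 1281 ± 60.2 CPM after CLP and 1270.2 ± 159.6 CPM after sham. In lung Cfi averaged 0.688 ± 0.166 CPM after CLP and 0.48 ± 0.0724 CPM after sham and was not called (adjusted p = 0.186).

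The receptors showed the largest fold changes of the 32 genes in either direction. C5ar1, the C5a receptor through which neutrophils are drawn to sites of activation, had 126.2, 125.4 and 73.9 CPM in CLP lung, against 20.2, 22.1 and 21.4 CPM in sham lung. All CLP lung libraries lay far above all sham lung libraries, with the third CLP library lower than the others, and the difference was 5.20-fold (2.38 ± 0.20, adjusted p = 0.000169). In liver C5ar1 had 14.7, 17.2 and 11.2 CPM after CLP, against 4.89, 5.01 and 3.85 CPM after sham. These groups were separate as well, at 3.14-fold (1.65 ± 0.21, adjusted p = 0.000548). The difference between both responses was not called (0.69 ± 0.31, adjusted p = 0.159), and it was called without the third CLP lung library (adjusted p = 0.0104).

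C5ar2, the second C5a receptor, which does not couple to G proteins, had 0.741, 0.650 and 0.987 CPM in CLP liver, against 3.72, 5.01 and 4.43 CPM in sham liver. These values rest on 6, 5 and 6 counts after CLP and 32, 42 and 46 counts after sham. The groups were far apart, and the CLP level was 5.54-fold lower (-2.47 ± 0.31, adjusted p = 0.000481). In liver, C5ar2 passed the filter on low counts through the sham libraries alone, so only a fall could be called. None of the 15 alternatives changed this call, among them the analysis without that filter. Their log2 fold changes ran from -2.66 to -2.34. In lung C5ar2 had 5.14, 5.43 and 4.34 CPM after CLP and 4.32, 4.36 and 4.81 CPM after sham, which overlapped (0.17 ± 0.15, adjusted p = 0.366).

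C3ar1, the C3a receptor, had 12.1, 13.2 and 6.40 CPM in CLP lung, against 3.30, 2.86 and 2.52 CPM in sham lung. The groups were separate, and the difference was 3.72-fold (1.89 ± 0.28, adjusted p = 0.00108). In liver it had 5.81, 5.33 and 8.06 CPM after CLP and 5.004, 4.77 and 5.30 CPM after sham. The liver values differed by little (0.33 ± 0.22, adjusted p = 0.26). The third CLP lung library was the lowest of its group for C5ar1, C3ar1, Cfp and C3.

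C5ar1 rose in both organs, C3ar1 rose in lung and C5ar2 fell in liver, while neutrophil and monocyte markers were higher in both organs. The summed level of 10 neutrophil markers was 3968 to 5598.4 CPM in CLP lung and 624 to 709 CPM in sham lung, with 10 of 10 higher, and its lowest CLP value was in the third library. In liver the neutrophil sum was 254 to 353 CPM after CLP and 28.7 to 32.2 CPM after sham, with 8 of 8 tested markers higher and Stfa2l1 at 0 in every sham liver library. The sum of 9 monocyte markers was 1202.8 to 1562.2 CPM in CLP lung and 549 to 661 CPM in sham lung, with 9 of 9 higher, and 99.3 to 107 CPM in CLP liver and 23.6 to 26.9 CPM in sham liver, with 7 of 9 higher. Chil3, which alveolar macrophages also express, made up 618 to 812 CPM of the monocyte sum in CLP lung and 441 to 571 CPM in sham lung, and its log2 fold change in lung was 0.50, against 1.74 to 3.96 for the other 8 markers. The part of these cells in the levels of C5ar1, C3ar1, Cfp, C3 and C5ar2 was not tested.

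**Figure D3:**
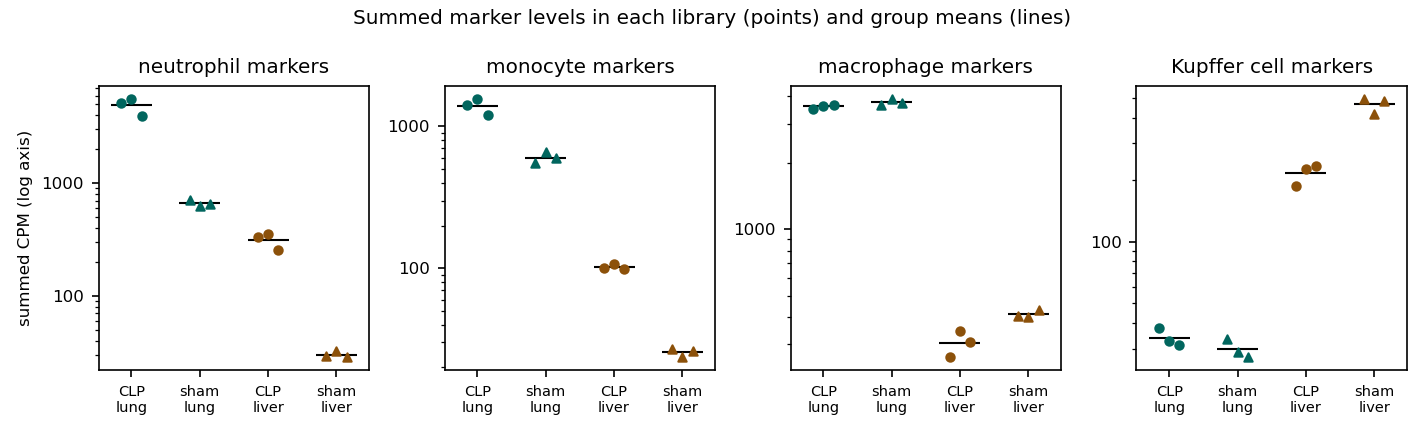
Summed levels of marker genes of neutrophils, monocytes, macrophages and Kupffer cells in each library, in CPM on log axes, with lines at the group means. Neutrophil and monocyte sums were higher in every CLP library than in any sham library of the same organ, and the Kupffer cell sum was lower in every CLP liver library than in any sham liver library.

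The response in lung was set against the response in liver in 1 model of all 12 libraries, in which 5 of the 32 genes had a higher response in lung, 2 had a lower one and 25 were not called. These are 15.6% and 6.25%, beside 8.89% and 8.84% of all 16111 genes tested. The genes with a higher response in lung were C5ar2 (2.62 ± 0.31, adjusted p = 0.000139), C3ar1 (1.54 ± 0.37, adjusted p = 0.0127), Cfp (1.28 ± 0.23, adjusted p = 0.00213), C1qc (0.50 ± 0.15, adjusted p = 0.0374) and C1qb (0.47 ± 0.14, adjusted p = 0.0369). For C5ar2 and C1qc the called change was the fall in liver, and for C3ar1, Cfp and C1qb it was the rise in lung. The genes with a lower response in lung were Masp1 (-0.88 ± 0.28, adjusted p = 0.0464), which fell in lung, and Cr1l (-0.57 ± 0.15, adjusted p = 0.0157), which rose in liver. The calls of C5ar2, C3ar1 and Cfp held in all 20 alternatives, while those of C1qb, C1qc, Masp1 and Cr1l were lost in 7, 6, 13 and 4 of them. Analyses without 1 library gave 3 to 7 genes with a higher response in lung, with 3 when the first CLP lung library or any 1 of the sham lung libraries was left out. They gave 0 to 2 with a lower response, with 0 when the first or the third CLP or the first or the third sham liver library was left out, and with 1 when the second sham liver library or the first or the third lung library of either surgery was left out.

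Without CLP, most complement transcripts were far lower in lung than in liver. In sham lung against sham liver, 25 of the 32 genes were lower and 5 were higher, which are 78.1% and 15.6%, beside 36.5% and 44.4% of all 16111 genes tested. The median log2 difference was -2.93 for the 32 genes and 0.19 for all genes. The summed level of the 32 genes was 2622 ± 224 CPM in CLP lung and 1962 ± 112 CPM in sham lung, against 44086 ± 2827 CPM in CLP liver and 37619 ± 4864 CPM in sham liver (SD, n = 3 each). Scaling between such unlike organs is uncertain, since on library totals alone the median of all genes moved to 1.497.

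The genes higher in sham lung were C7, Cd46, C5ar1, Cd55 and Cfd. C7 averaged 204 ± 13.6 CPM in sham lung and 2.79 ± 0.288 CPM in sham liver, which is 72.4-fold (6.18 ± 0.16, adjusted p = 8.32e-13). It was the terminal gene with the reverse of the usual order. C5ar1 averaged 21.2 ± 0.933 CPM in sham lung and 4.58 ± 0.636 CPM in sham liver (2.22 ± 0.23, adjusted p = 1.17e-06), and Cd46 averaged 8.34 ± 0.115 CPM in sham lung and 1.70 ± 0.709 CPM in sham liver (2.26 ± 0.24, adjusted p = 1.23e-06). Cd55 differed little, at 34.7 ± 1.60 CPM in sham lung and 26.9 ± 4.91 CPM in sham liver (0.37 ± 0.14, adjusted p = 0.0225), and 6 of 20 alternatives lost its call. Cfd had 123, 174 and 276 counts in sham lung and 1, 0 and 0 counts in sham liver. Cr1l and C5ar2 were not called, with averages of 54.8 ± 1.98 CPM and 4.50 ± 0.276 CPM in sham lung and of 51.6 ± 4.87 CPM and 4.39 ± 0.643 CPM in sham liver. This depended on scaling. On library totals alone edgeR called both higher in sham lung (adjusted p = 1e-08 for Cr1l and 4.7e-06 for C5ar2). Upper-quartile scaling also called Cr1l higher (adjusted p = 0.0069).

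Per kilobase of exon, the highest levels in sham lung were those of Serping1 (142 ± 2.84), C3 (94.5 ± 9.18) and Hc (77.8 ± 6.94 CPM per kilobase), with C7 close behind at 76.1 ± 5.08. Hc and C7 differed by less than the spread of the libraries. After CLP the order in lung was C3 (186 ± 31.1), Serping1 (134 ± 2.98) and C7 (105 ± 14.5). In liver the order was the same in both groups. C3 had 5947 ± 739 CPM per kilobase in CLP liver and 4619 ± 870 in sham liver, Serping1 had 789 ± 19.9 in CLP liver and 628 ± 26.5 in sham liver, and C4b had 427 ± 18.7 in CLP liver and 457 ± 11.3 in sham liver.

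The genes lower in lung ranged from a modest difference to near absence. As a share of the mean liver level after the same surgery, the hepatocyte markers in lung libraries ran from 0.00361% to 0.0798%. Mbl2, C8a, C8b, C9 and C4bp were at or below 0.0798% in every lung library, and the highest shares of Cfi, Masp2 and C8g were 0.0983%, 0.134% and 0.167%. These 8 genes thus lay within or near the range of the hepatocyte markers. Mbl1 and Masp1 had at most 1.03% and 0.883%, and Cfb at most 3.27%. C3 in lung was 2.52% to 3.49% of the liver level after CLP and 1.82% to 2.19% after sham, far above the hepatocyte markers. C4b was 4.76% to 5.38% of the liver level in CLP lung and 3.37% to 3.80% in sham lung. Hc, C1qa, C1qb and C1qc lay between 20.5% and 41.9% of the liver level over all lung libraries. C2, C6, C1ra, C1s1, Serping1 and Cd59a lay between 5.09% and 26%. Cfp was 81.2% to 118% of the liver level in CLP lung and 33.2% to 45.1% in sham lung. C3ar1 was 100% to 206% of the liver level in CLP lung and 50.2% to 65.7% in sham lung. For Cfp and C3ar1, the direction of sham lung against sham liver turned on library totals alone, without a call.

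**Figure D4:**
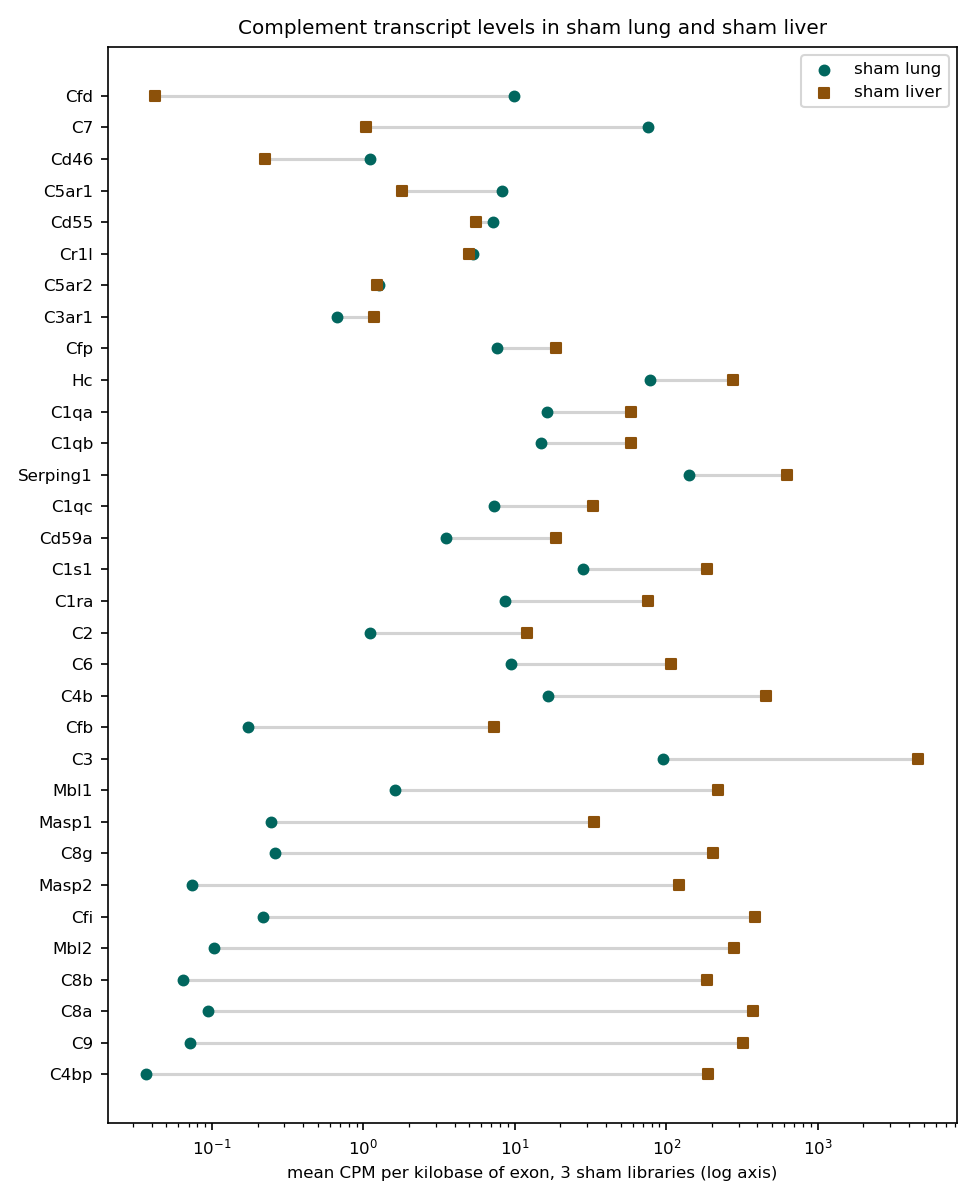
Mean level of each of the 32 genes in 3 sham lung and 3 sham liver libraries, in CPM per kilobase of exon on a log axis, ordered by the lung over liver ratio. C7 and Cfd lay far to the right in lung, and the lowest rows show the genes whose lung level was within or near the range of hepatocyte markers, while the Cfd point of sham liver rests on 1 count.

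Of 30 other complement genes listed beside the 32, 29 matched an identifier. In lung 17 were tested, and 7 were higher and 4 lower after CLP, which are 41.2% and 23.5%, beside 23.9% and 24.9% of all lung genes. In liver 23 were tested, with 7 higher and 7 lower, which are 30.4% in each direction, beside 21.4% and 21% of all liver genes. The complement receptor 3 chains, which phagocytes carry and which bind C3 fragments, were higher in both organs. Itgam had 100.4 ± 31.7 CPM in CLP lung and 6.14 ± 0.225 CPM in sham lung (4.05 ± 0.25, adjusted p = 5.87e-05), and 8.47 ± 2.14 CPM in CLP liver and 2.51 ± 1.05 CPM in sham liver (1.77 ± 0.32, adjusted p = 0.00297). It shares 3450 exon bases with Gm49368 on the same strand. Itgb2 had 269 ± 81.7 CPM in CLP lung and 69.8 ± 4.10 CPM in sham lung (1.97 ± 0.22, adjusted p = 0.000393), and 45.9 ± 8.46 CPM in CLP liver and 14.5 ± 1.85 CPM in sham liver (1.66 ± 0.17, adjusted p = 0.000191). These rises stand beside the higher neutrophil and monocyte sums given above, whose part was not tested.

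Vsig4, the complement receptor of Kupffer cells, had 15.03 ± 3.89 CPM in CLP liver and 36.0 ± 3.25 CPM in sham liver (-1.27 ± 0.18, adjusted p = 0.00101), beside the lower Kupffer cell sum. Thbd, the gene of thrombomodulin, which supports inactivation of C3b, changed in opposite directions. It had 368 ± 13.7 CPM in CLP lung and 719 ± 43.2 CPM in sham lung (-0.94 ± 0.09, adjusted p = 0.000196), and 128 ± 33.5 CPM in CLP liver and 14.3 ± 8.87 CPM in sham liver (3.16 ± 0.46, adjusted p = 0.00235). Cd93, once described as a C1q receptor, was higher in both organs, at 1095 ± 237 CPM in CLP lung and 598 ± 80.2 CPM in sham lung (0.90 ± 0.18, adjusted p = 0.00378) and at 83.6 ± 3.55 CPM in CLP liver and 16.3 ± 6.42 CPM in sham liver (2.36 ± 0.24, adjusted p = 0.000305).

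C1rl, which encodes a C1r-like protease, rose in lung and fell in liver, with 10.8 ± 0.668 CPM in CLP lung and 4.97 ± 0.536 CPM in sham lung (1.15 ± 0.12, adjusted p = 0.000261) and with 125 ± 16.2 CPM in CLP liver and 183 ± 22.8 CPM in sham liver (-0.55 ± 0.14, adjusted p = 0.0117). Fcnb, the gene of a ficolin known from myeloid cells, had 19, 10 and 9 counts in CLP lung and 0 in every sham lung library. It was called higher (adjusted p = 0.00191) and is among the 7 counted above. It passed the filter on low counts through the CLP lung libraries alone, so only a rise could be called.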

How the data were processed

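Stranded Illumina libraries of total RNA from lung and liver were sequenced, per the labels' protocols. The authors deposited whole-number counts per gene, not normalized. Per the submitters' processing notes, the tools included STAR 2.7.10a and featureCounts, with the build mm39. Which annotation was counted, with which strand setting, and how reads matching several genes were treated is not given in the sources used here, and such reads could shift counts between near-identical genes. Symbols were matched by identifier (52081 of 55414 genes had one). Exon lengths and overlaps came from a GENCODE annotation of GRCm38, an older build, so no gene positions are given in mm39.

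The tests used edgeR 4.0.16 under R 4.3.3 (filter by group with a minimum count of 10 and a minimum total of 15, trimmed-mean scaling, robust quasi-likelihood fits, two-sided p adjusted by Benjamini-Hochberg, threshold 0.05). Each organ was fitted on its 6 libraries. The difference between responses and sham lung against sham liver came from 1 model of all 12 libraries. Standard errors were taken as the size of the log2 fold change over the root of the F statistic. The procedure was tested on simulated data first, and 3 libraries a group limit the precision for small changes.

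Replicate libraries differed beyond sampling noise (chi-square per degree of freedom of 5.28 to 37.6 over genes with at least 20 counts), so none was merged. Values in every library are given for the genes called with a log2 fold change of at least 1 in size in either organ, those called for the difference between responses, and the 3 highest per length in each organ, with the other genes shown where the role calls for it. Other complement genes are named under the same fold rule, and 1 result is not reported here. The genes and lists were chosen with earlier results of these data known.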

Additional observations from a re-analysis of the deposited data

Results flagged for a closer look

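A difference between the responses of lung and liver, tested in 1 model of all 12 libraries, set 11 genes apart, each given as the log2 fold change after CLP in lung minus that in liver with its standard error and edgeR's adjusted p. Among the receptors, C5ar2 differed by 2.62 ± 0.31 (adjusted p = 0.000139) and C3ar1 by 1.54 ± 0.37 (adjusted p = 0.0127). Among the components, Cfp differed by 1.28 ± 0.23 (adjusted p = 0.00213), C1qc by 0.50 ± 0.15 (adjusted p = 0.0374), C1qb by 0.47 ± 0.14 (adjusted p = 0.0369) and Masp1 by -0.88 ± 0.28 (adjusted p = 0.0464). The regulator Cr1l differed by -0.57 ± 0.15 (adjusted p = 0.0157).

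Of 25 other complement genes tested, 5 had a higher and 4 a lower response in lung. These are 20% and 16%, beside 8.89% and 8.84% of all genes tested, and not all of them passed the fold rule. Among those that did, the difference was 2.24 ± 0.44 for Itgam (adjusted p = 0.00394) and 1.68 ± 0.18 for C1rl (adjusted p = 6.92e-05). It was -1.49 ± 0.32 for Cd93 (adjusted p = 0.00687) and -4.13 ± 0.46 for Thbd (adjusted p = 0.000141). The differences for Thbd and C1rl join a rise in 1 organ to a fall in the other, and the difference for Cd93 joins 2 rises. Vtn, which did not pass the fold rule, differed by -1.69 ± 0.24 (adjusted p = 0.000499), with a rise in liver and a fall in lung.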

How the results depend on the processing

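Under DESeq2, limma-voom, another scaling, no filter on low counts, no robust option or a replicate block, most counts of called genes stayed within 1.5 times their value. On library totals alone, 3 genes were higher and 9 lower in liver, and 1 had a lower response in lung than in liver. That last count was also 1 with DESeq2-type (RLE) scaling, and without the filter on low counts 3 genes had a higher response in lung. Library totals alone turned the direction of sham lung against sham liver for Cfp (0.019, adjusted p = 0.914) and C3ar1 (0.51, adjusted p = 0.0863). Without 1 library at a time, liver gave 4 to 5 genes higher and 3 to 5 lower, and lung 8 to 11 higher and 0 to 2 lower. The response was higher in lung for 3 to 7 and lower for 0 to 2, and sham lung was higher for 4 to 5 and lower for 24 to 25. The other complement genes gave 6 to 8 higher and 6 lower in liver, and 6 to 8 higher and 3 to 5 lower in lung. The cause of these shifts was not tested.

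Libraries with the same replicate number did not all deviate together. The correlations of their deviations from the group means were 0.0456, 0.154 and 0.197 between CLP and sham liver, where each library correlated best with its own number. They were -0.0141, 0.113 and 0.00336 between CLP and sham lung. Between CLP lung and CLP liver they were 0.177, 0.0694 and 0.256, and again each library correlated best with its own number. Between sham lung and sham liver they were -0.043, 0.0403 and 0.127. The labels do not say that the numbers pair the samples, and they were not taken to do so. The correlations do not settle whether libraries of the same number share a source of variation. With a replicate block, 6 genes were higher and 5 lower in liver, 10 higher and 2 lower in lung, and 5 had a higher and 1 a lower response in lung. The block added calls for C3 (adjusted p = 0.0327) and Mbl2 (0.035) in liver and for the difference between responses of C5ar1 (0.0243) and Cd55 (0.0485), and 6 calls were lost with it. Low counts limit Cfb and Masp1 in lung, Cd46 in liver and C5ar2 in CLP liver.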
